A study of Caenorhabditis elegans with 2 samples.

Results

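The genes described here encode proteins of the mitochondrial ribosome of Caenorhabditis elegans. They were taken by name: every protein-coding gene on a nuclear chromosome whose name begins with mrpl- (large subunit) or mrps- (small subunit) in the Ensembl annotation of WBcel235, the assembly also called ce11. This gave 70 of 19973 protein-coding genes, 41 of the large and 29 of the small subunit. The 78 rpl- and rps- genes, which encode the proteins of the cytosolic ribosome, and all protein-coding genes served for comparison.

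Mitochondria carry their own ribosomes, which translate the few membrane proteins of the respiratory chain that mitochondrial DNA encodes. Their RNA comes from mitochondrial DNA, but their proteins are made from nuclear genes in the cytosol and imported. In C. elegans, lowering the level of one such protein, MRPS-5, is known to disturb the balance of mitochondrial and nuclear respiratory chain subunits, to switch on the mitochondrial unfolded protein response and to lengthen life. The cytosolic ribosome makes all other proteins, and its genes are among the most highly transcribed in an animal.

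The data are chromatin immunoprecipitation with sequencing (ChIP-seq) for SDZ-12, a zinc finger protein. Strain OP670 carries the mutation unc-119(tm4063) and the integrated transgene wgIs670, which fuses SDZ-12 at its C-terminus to TY1, EGFP and 3xFLAG tags and holds a rescuing unc-119(+) copy. The binding is therefore that of the tagged copy, in whole L4 larvae of both sexes pooled, aged 71 hours, which had been synchronised by bleaching and starvation as L1 larvae, and all cell types are mixed. Sonicated chromatin was precipitated with an antibody against GFP, and there was 1 group of 2 biological replicates, so no comparison of conditions was possible and every value below is a description of these libraries. In the native promoter windows of the transgene's own genes, sdz-12 had no call in any of the 4 lists, and unc-119 had a weak pooled call of rank 21103.

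The authors deposited 4 lists of genomic intervals, each with a summit and a signal, their own enrichment score. The lists of replicate 1, of replicate 2 and of both replicates pooled hold 30000 calls each, background calls included, and a rank counts from the strongest signal in its list. The optimal list holds 665 peaks, the authors' selection by the reproducibility of calls between replicates, and these were the 665 strongest pooled calls. Optimal signals ran from 136 to 538, whereas the pooled list had a median of 64.2 and reached down to 48.1. How the signal is scaled is not known, so signals are compared here only within a list. Each gene received the strongest call whose summit lay in its promoter window, from 1000 bp upstream to 200 bp downstream of its annotated 5' end. The read depth of the libraries is unknown, so the absence of a call says only that the window held none of the 30000 listed.

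The sequences under the strongest calls differed in composition, and 3 of them are shown: those of mrps-28 and mrpl-41, which had optimal peaks, and that of mrpl-18, which shares a run of bases with another member. Each spans 50 bp on either side of the pooled summit, 5' to 3' on the strand of the member, which is the plus strand for all 3. The bases come from the RefSeq copy of WBcel235. Capitals mark the searched words given further on, except in mrpl-41, where they mark the 61 bases that lie inside the gene from its annotated 5' end, which is also its start codon.
mrps-28, chrV:19643198-19643298: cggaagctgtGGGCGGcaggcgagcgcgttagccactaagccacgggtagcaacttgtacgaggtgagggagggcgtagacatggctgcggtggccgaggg
mrpl-41, chrII:288899-288999: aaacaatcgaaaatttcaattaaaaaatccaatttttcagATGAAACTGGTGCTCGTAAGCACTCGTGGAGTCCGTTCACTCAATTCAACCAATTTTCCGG
mrpl-18, chrIII:8144760-8144860: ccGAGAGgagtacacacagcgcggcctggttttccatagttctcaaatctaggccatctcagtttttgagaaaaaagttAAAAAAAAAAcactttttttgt
The mrps-28 window is the most GC-rich at 66.3%, and those of mrpl-41 and mrpl-18 hold 36.6% and 38.6% GC. All 8 members among the 3000 strongest pooled calls averaged 49.1 ± 11.8% (SD), with a median of 47.5%. The bases just before the mrpl-41 start codon end in tttttcag, the form of a C. elegans 3' splice site.

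Of the 70 mitochondrial ribosomal protein genes, 3 had an optimal peak in the promoter window: mrps-28, mrpl-23 and mrpl-41. That share of 4.29% (95% Wilson interval 1.47 to 11.9%) stands beside 1.61% of all protein-coding genes and 19.2% (12 to 29.3%, 15 of 78) of the cytosolic ribosomal protein genes. The members' interval reaches down to the background of 1.61% and ends below that of the cytosolic genes. Wilson intervals here cover counting error over genes only. The 3 cytosolic genes with the strongest peaks, rpl-3, rpl-15 and rpl-35, had pooled signals of 508, 429 and 361, each above that of every mitochondrial member. All of these encode proteins of the large cytosolic subunit.

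The strongest member was mrps-28, a small-subunit gene at chrV:19644239-19645676 on the plus strand. Its peak had a pooled signal of 283 (rank 42), a replicate 1 signal of 148 (rank 46) and a replicate 2 signal of 130 (rank 53), so all 3 lists placed it in nearly the same position. The summit lay at -991 bp, however, 9 bp inside the edge of the window. It fell in an intron of Y43F8C.7, a divergent gene whose 5' end is the nearest protein-coding one at 782 bp, and 61 bp from the snoRNA gene Y43F8C.22. The pooled calls inside the gene itself were weak, with pooled signals of 62.1 at +313 bp and 48.8 at +1249 bp.

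The large-subunit gene mrpl-23 (chrI:6211270-6211885, minus strand) had a pooled signal of 158 (rank 383). Its replicates differed in rank, with a signal of 60.6 (rank 1958) in replicate 1 and of 100 (rank 174) in replicate 2. The summit lay at -978 bp in an intron of fars-1, a gene on the same strand that ends 95 bp upstream of mrpl-23 and encodes a subunit of a phenylalanyl-tRNA synthetase. The snoRNA gene T08B2.13, also inside fars-1, spans -939 to -811 bp. The pooled and both replicate summits also lay inside a pseudogene, WBGene00023344, and a non-coding RNA gene, T08B2.14. Thus 2 of the 3 members' optimal peaks had a snoRNA gene within 200 bp of the summit and lay inside another protein-coding gene. Among all 322 protein-coding genes with an optimal peak, 59 (18.3%) had the summit that close to a tRNA, snoRNA or snRNA gene, and 1 of the 15 cytosolic genes did. Whether the signal at mrps-28 and mrpl-23 belongs to the snoRNA genes, to the host or other overlapping genes or to the members cannot be told apart in these lists.

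The large-subunit gene mrpl-41 (chrII:288939-290386, plus strand) was the only one of the 3 with the optimal summit at its own 5' end. The summit lay at +10 bp in the first coding exon, and those of the replicates at +9 and +11 bp. The pooled signal was 145 (rank 519), with 60.4 (rank 1994) in replicate 1 and 85 (rank 315) in replicate 2. The upstream gene misc-1, on the same strand, ends within 500 bp of mrpl-41, and no tRNA, snoRNA or snRNA gene lay within 200 bp of the summit.

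**Figure D1:**
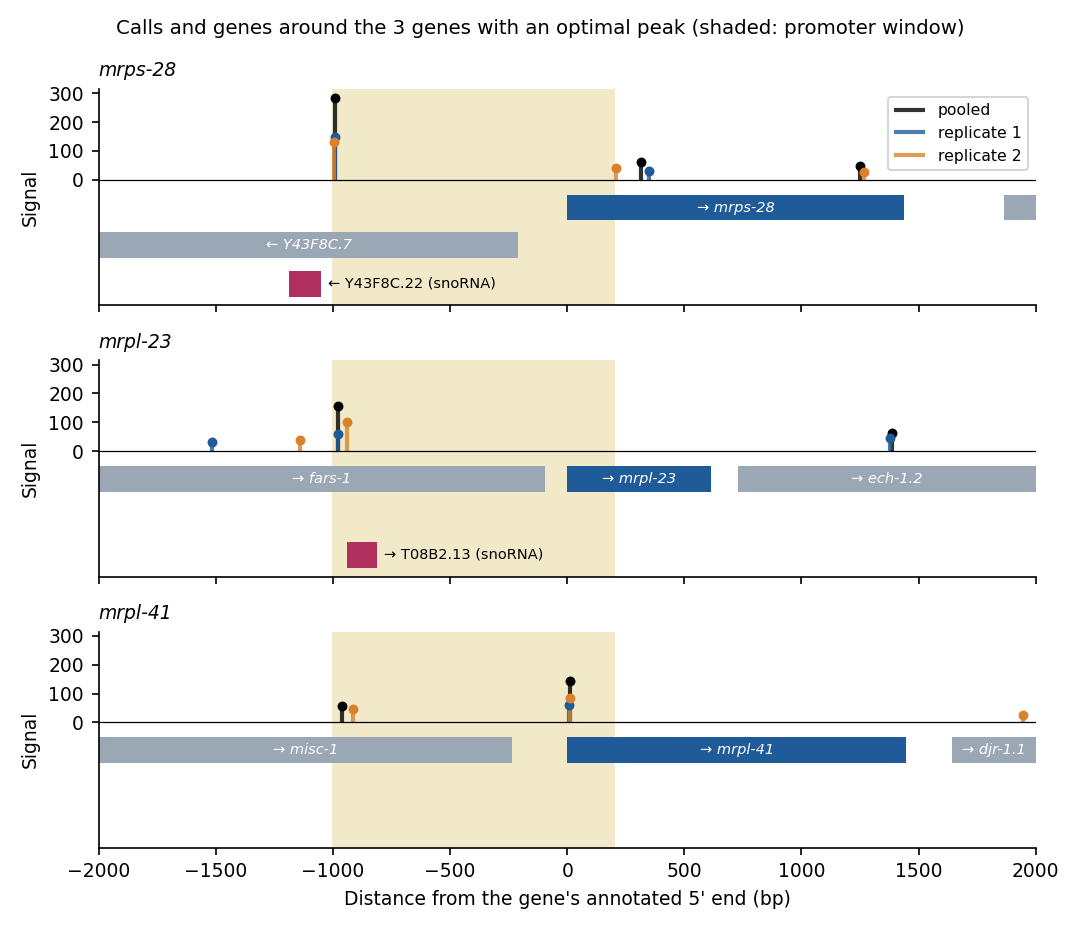
Calls around the 3 members with an optimal peak, by distance from the annotated 5' end (bp, negative is upstream), with the height of each stem the authors' signal in the pooled list or a replicate list. Bars are genes (blue the member, grey other protein-coding genes, red snoRNA genes, arrows their direction relative to the member) and the shaded band is the promoter window: the mrps-28 and mrpl-23 stems stand at -991 and -978 bp beside snoRNA genes, the mrpl-41 stem at +10 bp.

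A small-subunit gene, mrps-21, fell just outside the rule and is named here after its values were seen. Its nearest optimal peak, with a pooled signal of 145 and rank 524, had the summit at -1013 bp, 13 bp beyond the edge of the window. The replicate 2 summit of the same region lay inside, at -971 bp, with a signal of 74.2 and rank 566. The protein-coding 5' end nearest to that summit was not that of mrps-21 but that of F29B9.11, at -287 bp. That summit also lay in the window of jmjd-1.2, at -503 bp. F29B9.11 is on the strand of mrps-21 and ends 113 bp upstream of it. Which of these genes the signal belongs to was not tested. The replicate 1 summit, 80 bp from that of replicate 2 and outside the window, had a signal of 81.6 and rank 485. The edge of the window thus decided both mrps-28, 9 bp inside it, and mrps-21. Strong pooled summits also lay beyond the windows of mrps-27 (-1791 bp, rank 1125), mrpl-53 (+434 bp, rank 1427), mrpl-48 (+295 bp, rank 2129) and mrpl-12 (+270 bp, rank 2450).

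Below the optimal list, 5 members had a pooled call among the 3000 strongest, which makes 8 in all. The small-subunit gene mrps-35 (chrV:18981306-18985865) had a pooled signal of 128 (rank 886), with 61.9 in replicate 1 (rank 1763) and 65.5 in replicate 2 (rank 983). Its summits lay at -104, -104 and -101 bp, inside the 5' untranslated region of sws-1 on the opposite strand. The large-subunit gene mrpl-18 (chrIII:8145015-8145974) had a pooled signal of 123 (rank 1044), with 60.4 and 60.2 in replicates 1 and 2. Both genes had calls of similar standing in the replicates, and the mrpl-18 summit lay in no protein-coding gene, at -205 bp. That summit was nearer to the divergent gene C14B9.8, at -181 bp from that gene's 5' end.

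The other 3 of these members stood less evenly in the replicates. For mrpl-17 the pooled signal was 116 (rank 1349), with the summit in the gene's own coding exon at +152 bp and a replicate 2 signal of 65.2 (rank 1014). Replicate 1 had no call in the window, but a summit 62 bp from the pooled one, past the edge at +200 bp, with a signal of 47.4 and rank 6120. For mrpl-15 the pooled signal was 104 (rank 2288) at -622 bp, with 68.4 (rank 812) in replicate 2 and no replicate 1 summit nearer than 1763 bp. For mrpl-32 it was 106 (rank 2066) at -302 bp, with 57.8 (rank 2500) in replicate 1 and 41.2 (rank 7842) in replicate 2. All 3 encode proteins of the large subunit.

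The next member, mrps-30, had a pooled rank of 6052 and a signal of 82.9. The members that completed the 20 strongest were mrps-6, mrps-14, mrpl-50, mrps-18A, mrpl-53, mrpl-48, mrps-18C, mrpl-47, mrps-10, mrps-15 and mrpl-34. Their pooled ranks ran from 7112 for mrps-6 to 17756 for mrpl-34 and their signals from 79.7 down to 60.5, around the median of the whole pooled list. In the share of genes among the 3000 strongest pooled calls the members stood at 11.4% (5.91 to 21%), above the 4.87% of all protein-coding genes and below the 30.8% (21.6 to 41.7%) of the cytosolic genes. Among the 10000 strongest pooled calls the members' share was 15.7% (9.01 to 26%), beside 12.5% of all protein-coding genes and 41% of the cytosolic genes. Between those depths only 3 further members were gained.

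**Figure D2:**
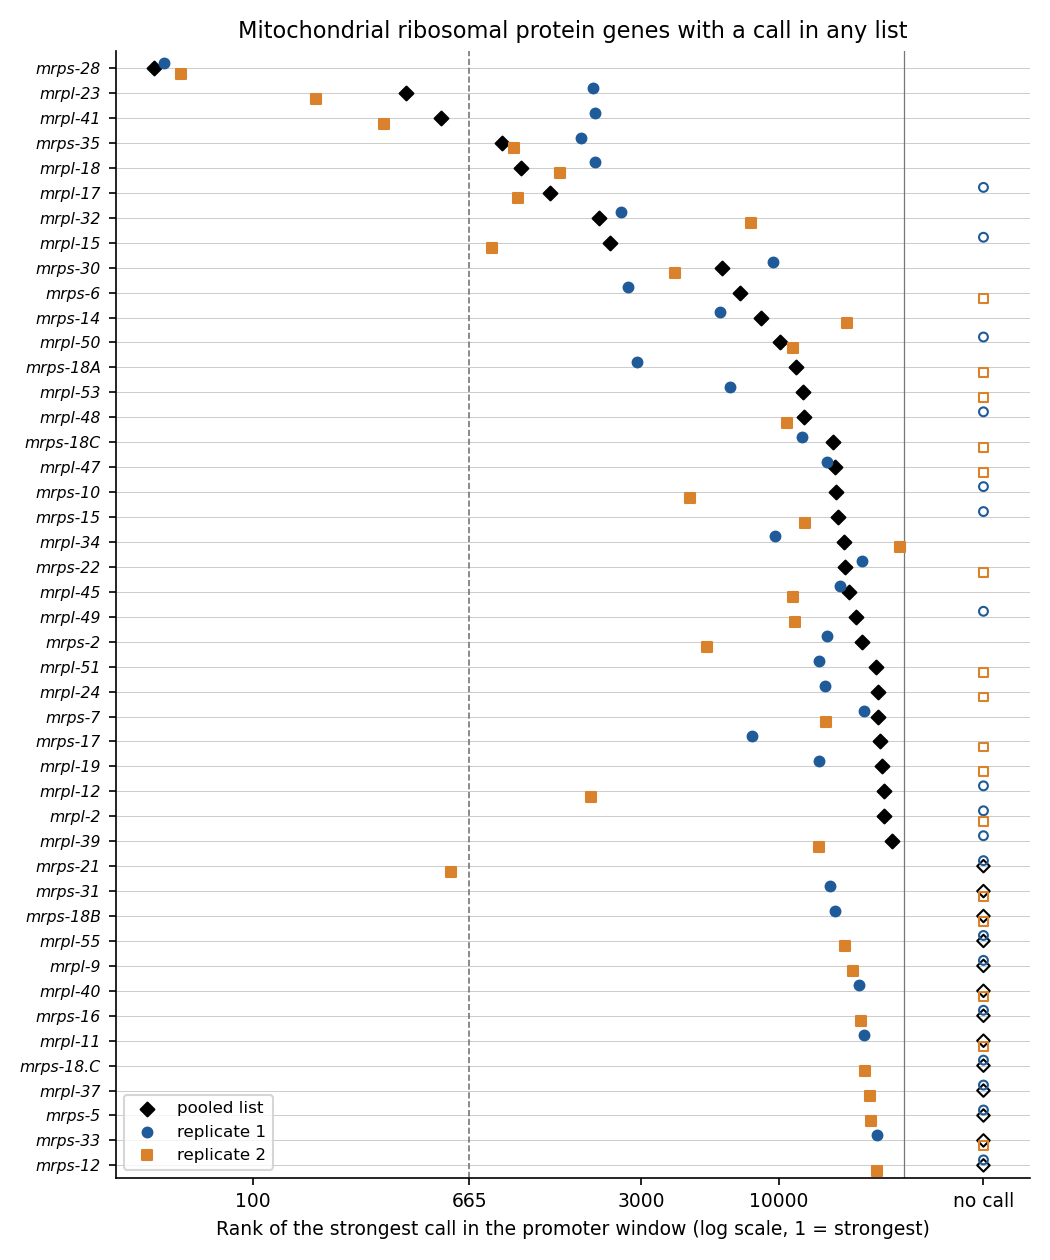
Rank of the strongest call in the promoter window (log scale, 1 is the strongest) for each mitochondrial ribosomal protein gene with a call in any list, in the pooled list (diamonds), replicate 1 (circles) and replicate 2 (squares), with open symbols at the right for no call. The dashed line marks rank 665, the size of the optimal list, and the solid line the end of the lists at 30000: 3 diamonds lie left of the dashed line, 8 lie above rank 3000, and many genes have an open symbol for 1 replicate.

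In the pooled list as a whole, 32 of the 70 members (45.7%, 34.6 to 57.3%) had a call, against 31.6% of all protein-coding genes and 65.4% (54.3 to 75%) of the cytosolic genes. The subunits were close to each other, with 19 of 41 large-subunit genes (46.3%) and 13 of 29 small-subunit genes (44.8%). Replicate 1 gave 27 members (38.6%) beside a background of 32.1%, and replicate 2 gave 29 (41.4%) beside 30.9%. In the replicate 1 list 31.7% of the large-subunit and 48.3% of the small-subunit genes had a call, and in replicate 2 39% and 44.8%, with intervals that overlapped in both.

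The members' calls were close to those of other genes at the median, lower in the pooled list and slightly higher in both replicate lists. The median pooled signal of the 32 members with a call was 62.5, below the 67 of all protein-coding genes with a call and the 93.9 of the 51 cytosolic genes. The median pooled rank was 16220 for the members, 13208 for all protein-coding genes and 3666 for the cytosolic genes. Within the replicate lists, the members' medians were 39.1 and 37, beside 38.6 and 35.4 for all protein-coding genes and 48.9 and 47.7 for the cytosolic genes.

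**Figure D3:**
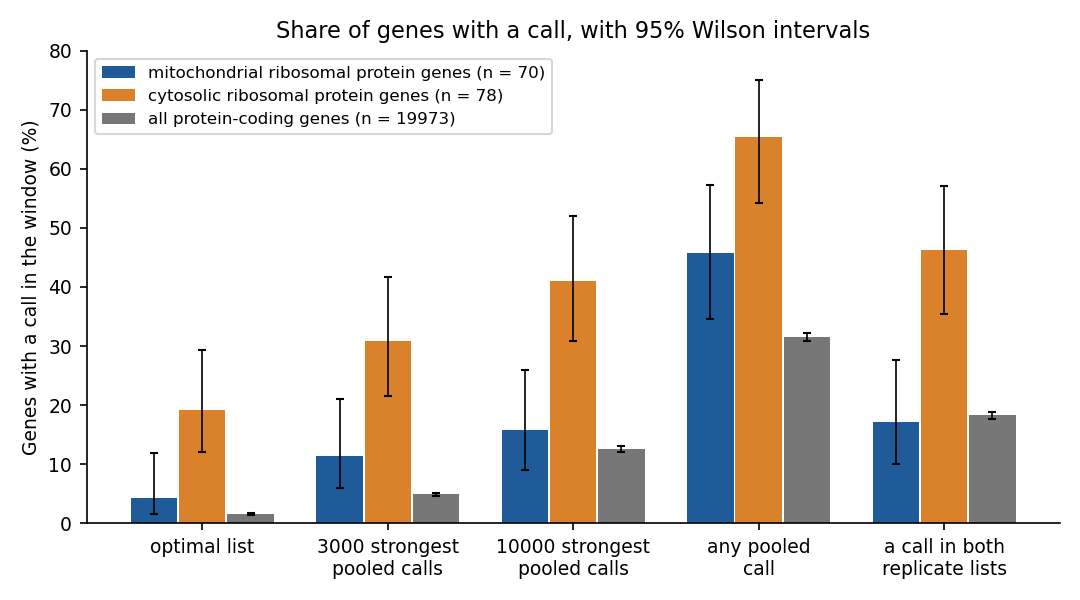
Share of mitochondrial ribosomal protein genes (blue), cytosolic ribosomal protein genes (orange) and all protein-coding genes (grey) with a call in the promoter window under 5 rules, in percent, with 95% Wilson intervals for counting error over genes. The blue bars lie between the orange and the grey bars for the first 4 rules and at the grey level for calls in both replicate lists (17.1% and 18.3%).

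The replicates differed in which members they called. Both replicate lists held a call for 12 members, 17.1% (10.1 to 27.6%), beside 18.3% of all protein-coding genes and 46.2% (35.5 to 57.1%) of the cytosolic genes. Of the 44 members with a call in either replicate list these 12 are 27.3%, while the corresponding shares were 40.9% for all protein-coding genes and 58.1% for the cytosolic genes. A call in the window in replicate 1 alone was found for 15 members (21.4%) and in replicate 2 alone for 17 (24.3%). Among the 17, mrpl-17 and mrps-21 had a replicate 1 summit nearby, past the edge of the window. For 11 of the 32 pooled summits both replicates had a summit within 200 bp, for 20 exactly 1 replicate did, and for mrpl-2 neither did. The counts of 1 replicate alone and of pooled summits, and the one that follows, are given for the members only. They have no share of other genes beside them and cannot be read as a trait of the members. Conversely, 13 members (18.6%) had a replicate call and no pooled call. One of them was mrps-5, the member best known from work on lifespan, named here for that reason, whose only call was a weak one in replicate 2 (signal 28.7, rank 22493) at -625 bp.

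These 12 include members whose replicates called different places in the window. For 7 of them (58.3%) the replicates' strongest summits lay within 200 bp of each other: mrps-28, mrpl-23, mrpl-41, mrps-35, mrpl-18, mrpl-32 and mrps-30. For the other 5, mrps-2, mrps-7, mrps-14, mrpl-34 and mrpl-45, they lay 319 to 860 bp apart. Counted by summits within 200 bp, 7 members (10%, 4.93 to 19.2%), 37.2% of the cytosolic genes and 13.4% of all protein-coding genes had a call in both replicates.

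The signals of the strongest calls were compared across the genes called in both lists, whether or not the summits were at one place. For the 12 members Pearson's r of the log2 signals was 0.796 and Spearman's rho 0.79, and without mrps-28 they were 0.684 and 0.727. The 36 cytosolic genes gave 0.844 and 0.808, and all 3648 protein-coding genes with both calls gave 0.62 and 0.44. With summits within 200 bp the values were 0.748 and 0.786 for the 7 members, 0.825 and 0.787 for 29 cytosolic genes and 0.663 and 0.497 for 2686 protein-coding genes. Genes share their libraries and the control, and are not independent replicates, so these values have no p-value. The members ranked higher in replicate 2 for 8 of the 12 and in replicate 1 for 4. The cytosolic genes ranked higher in replicate 2 for 18 and in replicate 1 for 18. Among all protein-coding genes the counts were 1803 in replicate 2 and 1843 in replicate 1. These counts include genes whose replicate summits lay at different places.
In lists cut at the size of the optimal list, the 665 strongest calls of replicate 1 gave 1 member, mrps-28 (1.43%, background 1.56%). Those of replicate 2 gave 4 members (5.71%, background 1.49%): mrps-28, mrpl-23, mrpl-41 and mrps-21. Replicate 1 also had a call of that standing at mrps-21 (rank 485), but its summit lay outside the window. The cytosolic genes stood at 17.9% and 16.7%.

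**Figure D4:**
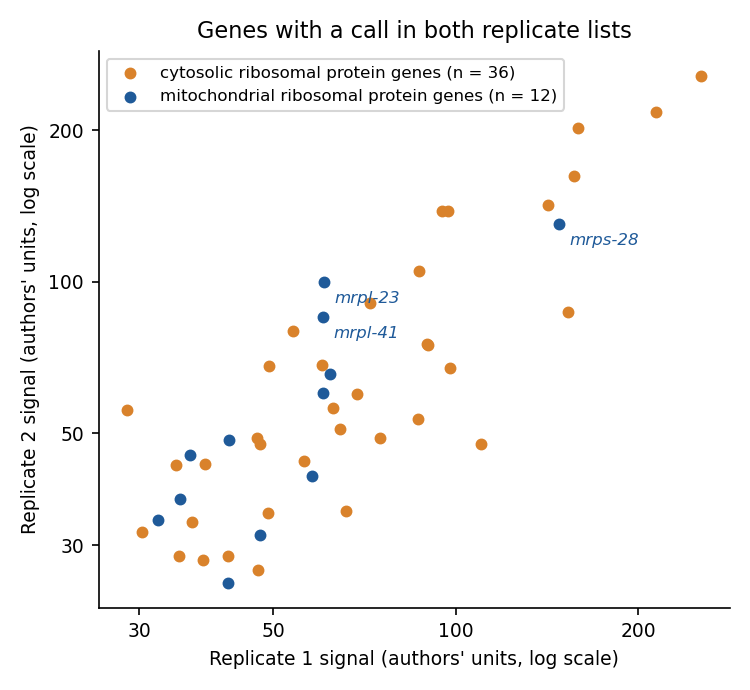
Authors' signal of the strongest call in the promoter window in replicate 1 (x) and replicate 2 (y), both on log scales, for the 12 mitochondrial (blue) and 36 cytosolic (orange) ribosomal protein genes called in both replicate lists. Among the blue points mrps-28 stands apart at 148 and 130, mrpl-23 and mrpl-41 have replicate 1 signals near 60 and higher replicate 2 signals of 100 and 85, and the highest points are cytosolic genes.

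No call in the pooled list or in either replicate list was found for 25 members, 35.7% (25.5 to 47.4%), while 54.1% of all protein-coding genes and 20.5% of the cytosolic genes had none. In the large subunit these were mrpl-1, mrpl-4, mrpl-10, mrpl-13, mrpl-16, mrpl-20, mrpl-21, mrpl-22, mrpl-28, mrpl-30, mrpl-35, mrpl-36, mrpl-38, mrpl-42, mrpl-44, mrpl-46 and mrpl-54. In the small subunit they were mrps-9, mrps-11, mrps-23, mrps-24, mrps-25, mrps-26, mrps-27 and mrps-34. The neighbours mrpl-1 and mrps-24, whose 5' ends lie 344 bp apart on opposite strands, were both among them.

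The summits of the members were spread over the whole window. The median position of the 32 pooled summits was -490 bp, beside -318 bp for the cytosolic genes and -331 bp for all protein-coding genes, and 53.1% lay between -500 and +200 bp, beside 70.6% and 61.9%. For 19 of the 32 (59.4%) the nearest protein-coding 5' end was the member's own, close to the 62.7% of the cytosolic genes and below the 80.5% of all protein-coding genes. Among the 8 strongest it was the member's own for 6. In that tier of the 3000 strongest calls, other genes were counted only by the rule of the nearest protein-coding 5' end. It left 744 of the 973 protein-coding genes and 14 of the 24 cytosolic genes. The summit lay inside another protein-coding gene for 18 members, in the member itself for 5 and in no protein-coding gene for 9. This split was not counted for other genes, so it cannot be read as a trait of the members' calls. Examples of the first kind are mrps-30 in a coding exon of cdc-26, mrps-6 in one of rpn-8 and mrpl-50 in an intron of cct-2.

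**Figure D5:**
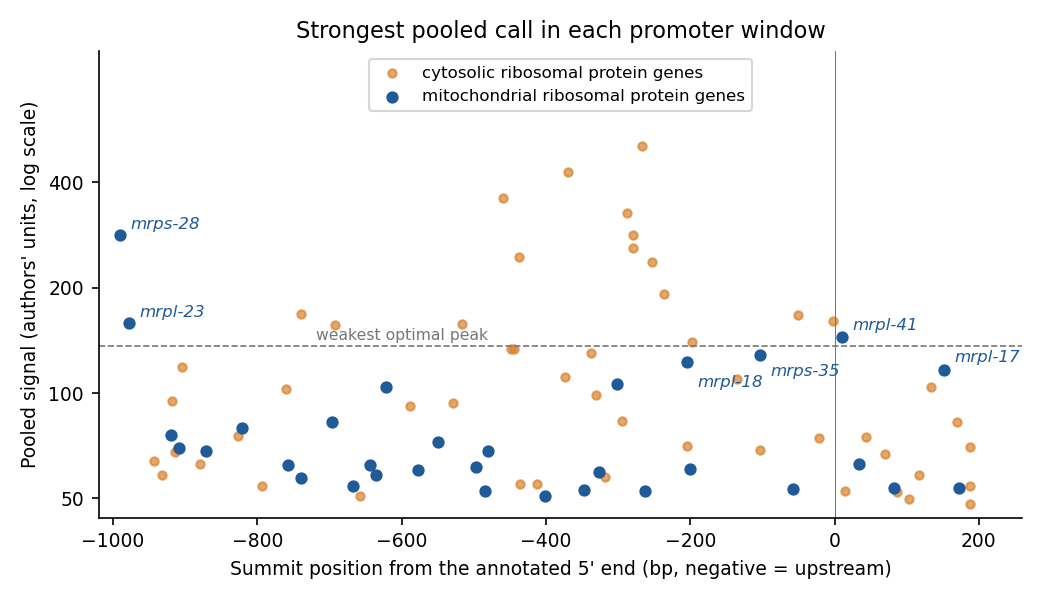
Position of the strongest pooled summit in the promoter window (x, bp from the annotated 5' end) and its signal (y, authors' units, log scale) for mitochondrial (blue) and cytosolic (orange) ribosomal protein genes, with a dashed line at the weakest optimal signal, 136. Above the line stand 3 blue points, 2 of them at the far left edge, while the strongest orange points, up to 508, lie between -500 and -200 bp.

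Many members have close neighbours. For 28 of the 70 (40%) the 3' end of a gene on the same strand lay within 500 bp upstream or overlapped the member. The overlap at mrps-27 was with hinf-1, at a gap of -105 bp. This arrangement was that of 10.3% of the cytosolic and 19.8% of all protein-coding genes, and in C. elegans is often that of an operon. For another 26 (37.1%) a divergent gene began within 1000 bp, as for 60.3% of the cytosolic and 17.4% of all protein-coding genes. The other 16 (22.9%) had neither, beside 29.5% and 62.8%. They include mrps-35, although its summit lay in the 5' untranslated region of sws-1 on the opposite strand. A divergent gene that overlaps the 5' end can thus be missed by this rule. The pooled shares were 46.4%, 57.7% and 25% in these 3 groups of members, and 36.4%, 37.9% and 28.3% for all protein-coding genes. The part of neighbouring genes in the members' share was not tested.
Among the neighbours are other ribosomal protein genes. The gene mrpl-4 begins 105 bp after the end of mrps-2 on the same strand, and mrpl-49 begins 519 bp from the divergent cytosolic gene rpl-28. The pooled summit assigned to mrpl-49 (signal 58.2, rank 19678) lay in the coding exon of rpl-28, 117 bp from its 5' end.

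By chromosome, 22 members (31.4%) lie on III, which holds 13.2% of all protein-coding genes. The others are spread over I (15), II (12), IV (11) and V (10), and none lies on X, which holds 13.7% of all protein-coding genes. Within the genes, past +200 bp, 31 members (44.3%) had a pooled summit, beside 52.6% of the cytosolic and 48.4% of all protein-coding genes. Median gene lengths were 1126, 754 and 2027 bp.

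At the pooled summits GC content was 43.1 ± 10.3% (SD, n = 32 windows) for the members, 46.8% for the cytosolic genes and 42.5% for all protein-coding genes. Whole promoter windows held 35.9%, 37.1% and 35.2%, so the summits of all 3 groups were richer in GC than their surroundings. On either strand 7 words were searched in these windows of 50 bp on either side of the summit, overlaps allowed, and their shares were set beside those of the 5625 distinct windows of all protein-coding genes. GAGAG was in 6 of the 32 members' windows (18.8%, background 20.9%), TGACGT in 4 (12.5%, background 3.73%), and CACGTG in 2 (6.25%, background 2.29%). In the windows of the 8 strongest members TGACGT and CACGTG were both absent (0 of 8), so their matches were at weaker calls, and GAGAG was in 3 (37.5%, beside 29.6% of the 803 distinct windows of all protein-coding genes among the 3000 strongest calls). GGGCGG was in 1 (3.12%, background 4.43%) and TTTTTTTT in 3 (9.38%, background 6.33%). GAGACGCAG and CCGGAAG were in none, beside backgrounds of 1.35% and 0.942%, and a count of 0 says only that these letters are not in these windows. A match is a string of letters, not a site.

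The longest run of bases that 2 members' summit windows shared was 13 bases, in mrps-35 and mrpl-18, looked for after the sequences were seen. The runs are shown on the strand that makes them readable alike, in capitals, with 8 flanking bases on each side.
mrps-35, chrV:18981194-18981222, minus strand: cgttgtcgGAGAGGAGTACACcggcggtg
mrpl-18, chrIII:8144754-8144782, plus strand: ctctgtccGAGAGGAGTACACacagcgcg
The run occurs 128 times in the nuclear chromosomes on both strands together. Of the 30000 pooled calls 18 had it within 50 bp of the summit, and 14 of these were among the 3000 strongest and 7 among the 665 strongest. The run includes GAGAG, one of the searched words. It stood in 15 of the 5625 distinct windows of all protein-coding genes (0.267%), a share at which 0 of 51 cytosolic windows says little. Because the run was picked from the members' windows, its presence there cannot be compared with other groups.

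Other nuclear genes for mitochondrial gene expression and protein quality were taken from a list of 42 names, of which 32 were in the annotation. It holds translation factors, aminoacyl-tRNA synthetases, genes for the transcription and upkeep of mitochondrial DNA, chaperones and proteases, prohibitins and regulators of the mitochondrial stress response. It also holds oxa-1, for inner membrane insertion, and dap-3, for a small-subunit protein of the mitochondrial ribosome that the rule by name left out. An optimal peak stood in the window of 3 (9.38%, 3.24 to 24.2%, background 1.61%), a pooled call in 14 (43.8%, 28.2 to 60.7%, background 31.6%) and calls in both replicate lists in 10 (31.2%, 18 to 48.6%, background 18.3%). The pooled share was near the members' 45.7%, while the share in both replicate lists was above their 17.1%, with overlapping intervals. The median pooled signal of those with a call was 89.9, above the members' 62.5. Of the 12 aminoacyl-tRNA synthetase genes of this list that were in the annotation, 4 had a pooled call. The 3 with an optimal peak were ears-2, for a mitochondrial glutamyl-tRNA synthetase (signal 307, rank 29, -23 bp), hsp-60, for the mitochondrial chaperonin (200, rank 157, -621 bp), and tufm-2, for a mitochondrial elongation factor (156, rank 398, -162 bp). All 3 have a divergent neighbour: uncp-18 begins 92 bp from ears-2, Y22D7AL.10 813 bp from hsp-60 and exoc-7 171 bp from tufm-2. The hsp-60 and tufm-2 summits thus lay nearer to the neighbour's 5' end than to the gene's own. The ears-2 peak was stronger than that of every mitochondrial ribosomal protein gene and stood in both replicates, at ranks 34 and 29.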

How the data were processed

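Immunoprecipitated chromatin of 2 biological replicates of 1 group was compared with no other condition. The authors called intervals on each replicate and on both pooled, with a control file, and derived the optimal list by the irreproducible discovery rate, as the accompanying deposited text files state. The signal of each call is the value the authors deposited. The sources used here name neither the caller nor its version, the scaling of the signal or the threshold.

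Gene positions came from Ensembl release 115 and bases from the RefSeq copy of WBcel235. Summits were assigned to promoter windows with Python 3.11.15, pandas 2.3.3 and NumPy 2.4.6, and Wilson intervals used SciPy 1.17.1. The assignment was tested on simulated summits. No test across samples or over the list was made. The members, the lists and the words were chosen with earlier results of these data known.

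The genes named were every member with an optimal peak, the 20 with the strongest pooled call, every member with no call, the 3 strongest cytosolic genes and the 2 genes of the transgene. Genes of the mitochondrial expression list with an optimal peak, dap-3, oxa-1, neighbouring genes, and mrps-2, mrps-7, mrpl-2, mrpl-45, mrpl-49, mrps-5, mrps-21 and the members with strong summits outside the window were named in addition, after their values were seen. Alternatives changed the window, the 5' end, the assignment rule, the threshold, calls near small RNA genes and the replicates used.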

Additional observations from a re-analysis of the deposited data

How the results depend on the processing

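Of 58 alternative values over 10 settings, 42 stayed within 1.5 times the reported count, or within the 58.2 to 79.7 interval of the median signal, and 16 did not. With a window of 500 bp upstream the members had 1 optimal peak (1.43%, all protein-coding genes 1.18%), 18 pooled calls (25.7%, all 21.2%), 6 calls in both replicate lists (8.57%, all 10.7%) and 5 among the 3000 strongest (7.14%, all 3.27%). With 2000 bp upstream 29 members had calls in both replicate lists (41.4%, all 32.5%), and with any overlap of the interval and the window 25 (35.7%, all 25.6%). When a summit counted only for the protein-coding gene with the nearest 5' end, 20 members had a pooled call (28.6%, all 26.1%) and 7 had calls in both lists (10%, all 14.2%), while 8 cytosolic genes had an optimal peak (10.3%, all 1.2%, members 2.86%). With replicate summits within 200 bp of each other, a setting chosen after seeing the data, 7 members had calls in both lists. Without calls near small RNA genes 1 member had an optimal peak (1.43%, all 1.32%), as had 1 member and 194 of all protein-coding genes (0.971%) among the 332 strongest optimal peaks. Leaving out a replicate gave 1 to 4 members at the size of the optimal list and median signals of 37 to 39.1, on the scale of the replicate lists. Other causes of these shifts than the settings' own construction were not tested. No paired analysis was possible because there is 1 group. The unknown read depth limits what a missing call means.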
